A study of Mus musculus with 6 samples.

Results

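B cell and plasma cell transcripts were examined in RNA sequencing libraries of mouse pancreatic acinar cells. The set is 9 genes: the immunoglobulin genes Ighm, Igkc, Igha and Ighg2b, the B cell surface genes Cd79a, Cd79b and Ms4a1, and the antigen presentation genes Cd74 and H2-Aa. They were taken from a fixed list of symbols by matching Ensembl identifiers, and all 9 were found among the 55414 identifiers of the count tables. All 9 also passed the filter on low counts and were among the 13115 genes tested.

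The 6 libraries came from untreated adult mice that all carried Cre recombinase under the Pdx1 promoter, which is active in the pancreatic epithelium. The 3 control libraries were Pdx1Cre;Trip12+/+ and the 3 knockout libraries Pdx1Cre;Trip12fl/fl, lacking the ubiquitin ligase TRIP12 where Cre had acted. Lymphocytes do not derive from Pdx1-expressing cells. The labels number biological replicates 1 to 3 in each group without stating what the numbers refer to, and wherever 3 values follow each other below, they stand for replicates 1, 2 and 3 in that order.

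B cells carry an antibody on their surface as the antigen receptor. The antibody's heavy and light chains are each made of a variable segment, chosen from many in the genome, joined to a constant region. Naive B cells use the constant regions mu and delta. After activation a cell can switch to gamma, alpha or epsilon, and when it becomes a plasma cell it secretes large amounts of one antibody, with much more immunoglobulin mRNA per cell and less of the surface receptor genes. Acinar cells, which make digestive enzymes, do not transcribe these genes. In the pancreas B cells lie in the interstitium, in blood and in the lymph nodes attached to the gland.

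Gene counts ran from 31019500 to 34041901 per library. All 16 acinar markers were present in every library, with a summed level from 447847 to 723439 CPM (counts scaled to library sizes with TMM factors), and 3 counts corresponded to 0.0804 to 0.123 CPM. Trip12 had 29.0, 22.3 and 26.4 CPM across the controls and 14.4, 14.7 and 13.0 CPM across the knockouts (log2 fold change -0.89, SE 0.14, adjusted p = 0.0256, edgeR quasi-likelihood F test, Benjamini-Hochberg). Control replicates 2 and 3 held 2118 and 2440 Xist counts, the other libraries at most 5, so sex and group were partly confounded. Counts of Y-linked genes were 1 and 3 in those controls and 1205 to 1784 in the other libraries. Replicate 1 thus differed from replicates 2 and 3 in sex among the controls but not among the knockouts. Replicate numbers 2 and 3 each set a male knockout beside a female control. Control replicate 3 stood apart for the genes described here, with 0 counts for 4 of the 9.

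Antibody counts were present in all 6 libraries, at levels that differed far more between replicates than between the groups. Summed over constant regions and variable segments, immunoglobulin counts came to 180.4, 44.6 and 0.529 CPM of the gene counts of each control library, without TMM scaling. The knockout libraries had 449, 25.8 and 16.4 CPM on the same scale. The means were 75.2 ± 93.8 (SD, n = 3) in control and 163.6 ± 246.8 in knockout, each with an SD above its mean. Replicate 1 was highest in both groups, and the groups overlapped. In bulk tissue, fewer cells of a type and less RNA per cell cannot be told apart.

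Ighm (ENSMUSG00000076617, chromosome 12) encodes the mu constant region, used by naive B cells and by IgM-secreting cells. Its level was 44.2, 14.5 and 0.436 CPM across the controls and 34.1, 6.02 and 6.87 CPM across the knockouts. The 2 libraries numbered 1 were highest, and control replicate 3, with 12 counts, was lowest. Knockout against control gave a log2 fold change of -0.34 with an SE of 1.52. Within the numbered pairs, knockout over control was 0.772 in pair 1, 0.415 in pair 2 and 15.7 in pair 3, so the direction was not shared.

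Igkc (ENSMUSG00000076609, chromosome 6) encodes the kappa light chain constant region, which pairs with any heavy chain class. Its level was 36.0, 18.1 and 0 CPM across the controls and 69.7, 4.97 and 2.15 CPM across the knockouts. Control replicate 3 held no count, which allows up to 0.109 CPM, and knockout replicate 3 at 80 counts was thus at least 19.7-fold higher. In pair 2 the control was the higher library, 3.65-fold. Its log2 fold change was 0.50 with an SE of 1.99.

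Igha (ENSMUSG00000095079, chromosome 12) encodes the alpha constant region of IgA, the antibody of mucosal secretions. It had 13.3, 1.11 and 0.145 CPM across the controls and 17.0, 1.37 and 0.215 CPM across the knockouts. Same-numbered libraries lay close together, with knockout over control between 1.24 and 1.48 in the 3 pairs, while replicate 1 exceeded replicate 3 by 91.4-fold in control and 79.2-fold in knockout. Those last values rest on 4 counts in control replicate 3 and 8 in knockout replicate 3. The log2 fold change between the groups was 0.34 with an SE of 2.00.

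Ighg2b (ENSMUSG00000076613, chromosome 12) encodes the gamma-2b constant region of a class-switched antibody. It had 6.74, 0.657 and 0 CPM across the controls and 86.1, 1.43 and 0.107 CPM across the knockouts. A single library stood out: knockout replicate 1, with 3211 counts, was 12.8-fold above control replicate 1 and 802-fold above knockout replicate 3, which had 4 counts. The groups still overlapped, and the log2 fold change of 3.52 had an SE of 2.59. Without knockout replicate 1, the highest library, it was -1.70.

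**Figure D1:**
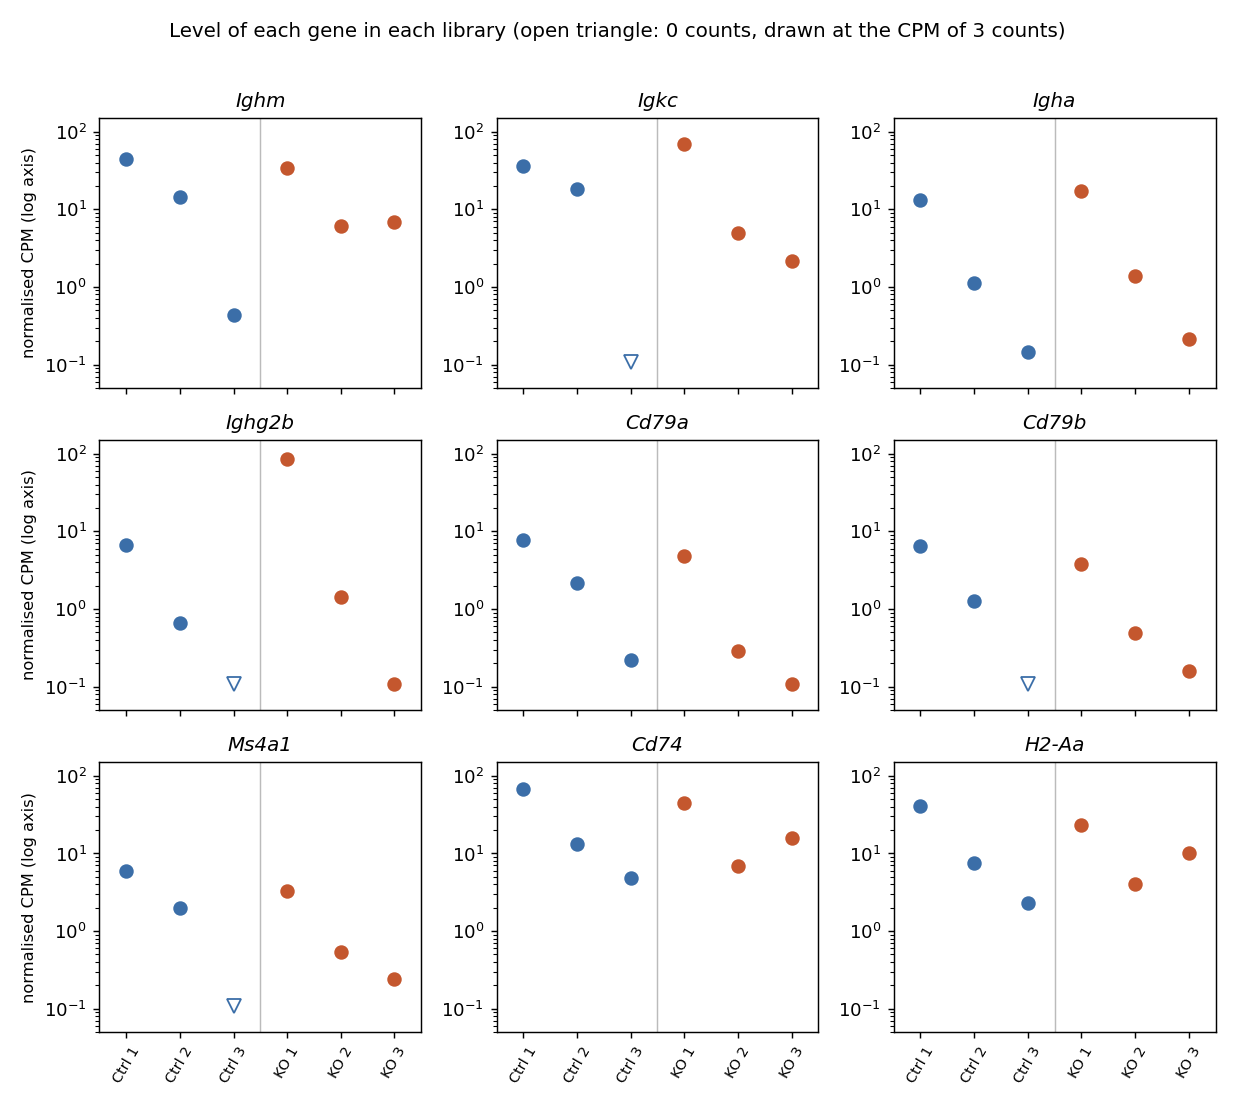
Normalised CPM of each gene (vertical log axis) in each of the 6 libraries (horizontal axis, Ctrl for control and KO for knockout, followed by the replicate number); open triangles mark 0 counts, drawn at the CPM that 3 counts would give. Replicate 1 is the highest library of its group in all 9 panels, and Ighg2b in knockout replicate 1 reaches 86.1 CPM.

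The class of the antibody transcripts differed between libraries. Among heavy-chain constant counts, the switched classes (gamma, alpha and epsilon) made up 33.3% (95% Clopper-Pearson interval 31.6 to 35.1) in control replicate 1 and 30.2% (26.5 to 34.1) in control replicate 2. The share was 77.4% (76.4 to 78.4) in knockout replicate 1, 41.3% (36.2 to 46.5) in knockout replicate 2 and 9.09% (6.02 to 13.0) in knockout replicate 3. Control replicate 3 had 16 heavy-chain counts, too few for a share. The 3 knockout libraries thus held both the highest and the lowest share, and these intervals cover counting error only, since reads without molecular identifiers are not independent molecules.

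The make-up of classes differed from library to library. Ighg2b was 48.8% (47.58 to 50.01) of heavy-chain counts in knockout replicate 1, against 13.4% (10.1 to 17.3) in knockout replicate 2, 7.45% (6.52 to 8.47) in control replicate 1 and 2.76% (1.59 to 4.45) in control replicate 2. It was 1.40% (0.382 to 3.54) in knockout replicate 3. There Ighm was 89.5% (85.4 to 92.8), while Igha was 2.80% and Ighd, the delta constant region of naive B cells, 1.40%. Ighd made up 17.8% in control replicate 1, and from 1.40% to 8.81% in the other 4 libraries. Ighg3, another gamma class, led the switched classes in control replicate 2, with 16.6% (13.6 to 19.9) against at most 5.26% elsewhere.

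Light chains were mostly kappa, as is usual in the mouse. The lambda constant genes made up 8.64% (7.14 to 10.3) of light-chain constant counts in control replicate 1 and 5.77% (3.84 to 8.28) in control replicate 2. The share was 3.06% (2.44 to 3.78), 4.396% (1.92 to 8.48) and 1.23% (0.0313 to 6.69) in knockout replicates 1 to 3. The knockout replicate 1 interval lay below both control intervals, while the intervals of knockout replicates 2 and 3 overlapped that of control replicate 2. In knockout replicate 1 a single kappa segment, Igkv8-27, held 71.1% of light-chain variable counts, and its part in the low lambda share was not tested. Counts of the constant genes are uncertain for near-identical genes: of the stretches of 50 bases in each transcript, 22.3% of Iglc3 and 4.15% of Ighg2b also occur in another gene, and none of Ighm, Igha or Igkc.

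**Figure D2:**
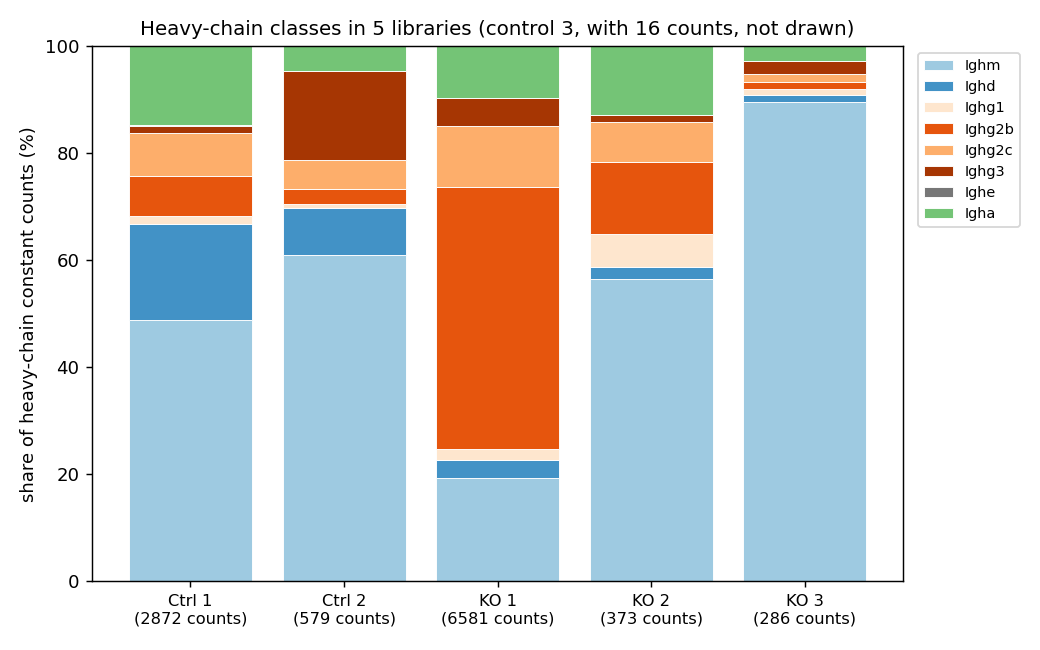
Share of each heavy-chain constant gene (vertical axis, percent of heavy-chain constant counts) in 5 libraries, with the number of counts under each bar; colours are the 8 constant genes. Ighg2b fills 48.8% of knockout replicate 1, and Ighm fills 89.5% of knockout replicate 3.

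In knockout replicate 1 most variable-segment counts fell on 1 heavy and 1 light segment. Ighv1-61 on chromosome 12 held 1540 of 2009 heavy-chain variable counts, 76.7% (74.7 to 78.5), and Igkv8-27 on chromosome 6 held 1936 of 2724 light-chain variable counts, 71.1% (69.3 to 72.8). The next segments there, Ighv6-3 and Igkv4-68, held 3.14% and 2.72%. In the other libraries Ighv1-61 had at most 1 count and Igkv8-27 at most 5. The counts do not show whether both segments were transcribed in the same cells.

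The 2 germline segments are shown because they carry this difference. Each line is the last 300 bases of the coding sequence of the GENCODE M21 transcript (GRCm38), and the capitals run from the last in-frame cysteine codon to the end, the germline start of the third hypervariable loop, where the segment is joined and which varies most between antibodies.
Ighv1-61: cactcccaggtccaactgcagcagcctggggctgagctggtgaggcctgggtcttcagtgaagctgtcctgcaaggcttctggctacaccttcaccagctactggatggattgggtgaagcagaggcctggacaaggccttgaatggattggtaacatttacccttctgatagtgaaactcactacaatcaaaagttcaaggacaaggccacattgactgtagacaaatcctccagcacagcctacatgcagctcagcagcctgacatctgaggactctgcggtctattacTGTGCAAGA
Igkv8-27: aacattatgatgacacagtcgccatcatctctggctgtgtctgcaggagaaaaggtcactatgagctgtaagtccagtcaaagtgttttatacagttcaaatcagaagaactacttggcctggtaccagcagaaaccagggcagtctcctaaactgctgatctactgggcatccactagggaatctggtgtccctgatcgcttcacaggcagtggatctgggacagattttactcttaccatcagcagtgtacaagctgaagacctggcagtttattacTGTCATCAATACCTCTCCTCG
Of the stretches of 50 bases in Ighv1-61, 61.9% also occur in other genes, mainly segments of the same family, against 8.36% in Igkv8-27. Reads that map to several places are not counted, so the share of Ighv1-61 is the less certain of the 2.

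The other libraries were less concentrated. The leading heavy segment was Ighv1-26 at 5.23% in control replicate 1, Ighv1-11 at 14.3% in control replicate 2, Ighv9-3 at 31.2% in knockout replicate 2 and Ighv1-53 at 42.9% (29.7 to 56.8, 56 counts) in knockout replicate 3. The leading light segment was Igkv10-96 at 7.13%, Igkv8-16 at 13.4%, Igkv4-68 at 31.1% and Igkv3-10 at 25.5% in the same order. No 2 libraries had the same leading segment of either chain, and control replicate 3 had 2 variable counts in all.

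Variable counts differed in number, so segments were also compared at an equal number of them. Of 218 segments in the tables, 146 had a count in control replicate 1, 81 in control replicate 2 and 135, 54 and 37 in knockout replicates 1 to 3. In 150 variable counts drawn at random the expected number of different segments was 74.3 and 61.7 in control replicates 1 and 2. It was 31.2, 43.7 and 36.3 in knockout replicates 1 to 3, below both controls, with only 2 controls measurable and no test. Drawing equal numbers does not match the B cell content, since the receptor counts given below were 643 and 132 in those controls and 443, 46 and 19 in the knockouts, and the value of knockout replicate 1 includes its 2 leading segments.

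**Figure D3:**
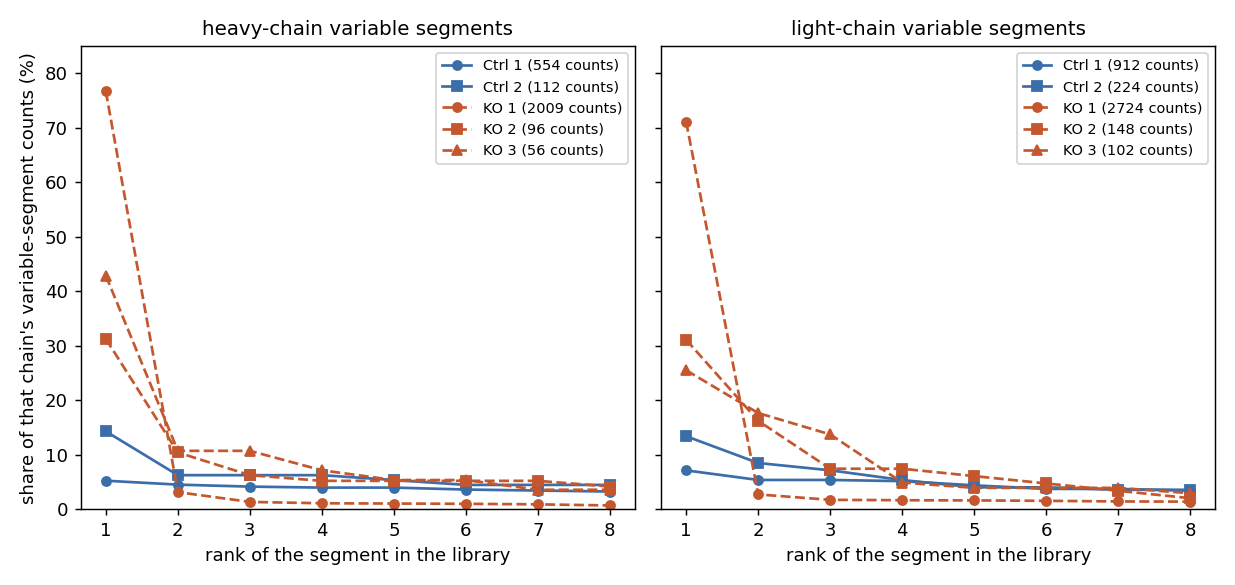
Share of each chain's variable-segment counts (vertical axis, percent) held by the 8 leading segments of each library, by rank (horizontal axis), for heavy chains (left) and light chains (right). In knockout replicate 1 the leading segment holds 76.7% of heavy and 71.1% of light counts; control replicate 3 is not drawn.

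Jchain, which joins IgM and IgA into polymers and is made by antibody-secreting cells, had 9.04, 3.57 and 0.0727 CPM across the controls and 15.4, 1.63 and 0.778 CPM across the knockouts. It was highest in knockout replicate 1, and the groups overlapped. Other plasma cell markers were at low counts or are also acinar genes. Mzb1 and Tnfrsf17, a chaperone and a survival receptor of plasma cells, had at most 4 counts in any library. Xbp1, the secretory transcription factor that acinar cells also use, lay between 299 and 474 CPM in every library. Of the 20 plasma cell genes listed 15 were tested, none was called between the groups, and 1 was lower at an unadjusted p under 0.05, where 8.27% of all genes were lower.

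Cd79a (ENSMUSG00000003379, chromosome 7) and Cd79b (ENSMUSG00000040592, chromosome 11) encode the signalling chains of the B cell antigen receptor. Cd79a had 7.81, 2.18 and 0.218 CPM across the controls and 4.80, 0.285 and 0.107 CPM across the knockouts. In each numbered pair the control was higher, by 1.63-fold, 7.63-fold and 2.03-fold, the last on 6 against 4 counts. The groups overlapped, with a log2 fold change of -0.98 and an SE of 1.75.

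Cd79b had 6.49, 1.27 and 0 CPM across the controls and 3.75, 0.485 and 0.161 CPM across the knockouts. The control was higher in pair 1 (1.73-fold) and pair 2 (2.62-fold). In pair 3, 0 counts in control stood against 6 in knockout. Its log2 fold change was -0.83 with an SE of 1.83.

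Ms4a1 (ENSMUSG00000024673, chromosome 19) encodes CD20, a surface protein of B cells that plasma cells lose. Its level was 5.95, 1.97 and 0 CPM across the controls and 3.32, 0.542 and 0.241 CPM across the knockouts. The order of the libraries was that of Cd79b, with control higher in pair 1 (1.79-fold) and pair 2 (3.64-fold) and 0 counts in control against 9 in knockout in pair 3. Ms4a1 overlaps an antisense gene, and the counts do not separate strands. The log2 fold change was -0.95 with an SE of 1.69.

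Antibody counts were set against the summed counts of Cd79a, Cd79b and Ms4a1, which were 643, 132 and 6 across the controls and 443, 46 and 19 across the knockouts. Per such receptor count, Ighg2b was 0.333 and 0.121 in control replicates 1 and 2 and 7.25, 1.09 and 0.211 in knockout replicates 1 to 3. Igkc was 1.78 and 3.34 in control replicates 1 and 2 and 5.87, 3.78 and 4.21 in knockout replicates 1 to 3. Both ratios were highest in knockout replicate 1. Ighm per receptor count was close in the 2 libraries numbered 1, at 2.18 in control and 2.87 in knockout, and was 13.5 in knockout replicate 3, on 19 receptor counts.

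Cd74 (ENSMUSG00000024610, chromosome 18) encodes the invariant chain, which guides MHC class II molecules to the compartment where they load peptide. B cells, dendritic cells and macrophages all express it. It had 68.2, 13.1 and 4.80 CPM across the controls and 44.1, 6.97 and 15.8 CPM across the knockouts. Control was higher in pair 1 (1.54-fold) and pair 2 (1.88-fold), and knockout in pair 3 (3.30-fold). The log2 fold change was -0.37 with an SE of 1.24.

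H2-Aa (ENSMUSG00000036594, chromosome 17) encodes the alpha chain of the class II molecule I-A. It had 40.8, 7.64 and 2.33 CPM across the controls and 23.1, 4.03 and 10.1 CPM across the knockouts. The order of the libraries was the same as for Cd74, with control higher in pair 1 (1.77-fold) and pair 2 (1.90-fold) and knockout in pair 3 (4.33-fold). Between the groups H2-Aa had a log2 fold change of -0.46 with an SE of 1.24.

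Class II genes are switched on together by the co-activator CIITA through a shared promoter module, whose Y box binds the factor NF-Y. H2-Aa and H2-Eb1, the beta chain of the class II molecule I-E, are shown because both promoters hold the letters searched. Each line is the 250 bases before the RefSeq start site (GRCm38.p6), at chr17:34287824-34288073 on the minus strand for H2-Aa and chr17:34305617-34305866 on the plus strand for H2-Eb1, with CTGATTGG in capitals.
H2-Aa: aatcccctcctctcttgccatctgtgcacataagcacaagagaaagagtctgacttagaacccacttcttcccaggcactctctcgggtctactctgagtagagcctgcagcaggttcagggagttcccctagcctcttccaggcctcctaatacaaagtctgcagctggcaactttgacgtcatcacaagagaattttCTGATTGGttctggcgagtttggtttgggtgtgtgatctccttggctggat
H2-Eb1: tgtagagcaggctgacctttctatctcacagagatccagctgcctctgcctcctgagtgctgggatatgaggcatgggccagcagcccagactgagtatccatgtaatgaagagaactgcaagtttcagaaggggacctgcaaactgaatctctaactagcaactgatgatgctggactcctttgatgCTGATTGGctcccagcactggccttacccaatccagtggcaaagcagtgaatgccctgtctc
CTGATTGG was searched on both strands and occurs in 1258 of 32851 such windows (3.83%), and in 4 of the 12 windows of the 11 class II presentation genes with an entry, namely those of H2-Aa, H2-Eb1, H2-Eb2 and H2-Oa. H2-Eb1 had 14.6, 3.70 and 1.24 CPM across the controls and 21.6, 4.60 and 4.91 CPM across the knockouts, higher in knockout in each numbered pair, whereas H2-Aa was higher in control in pairs 1 and 2. A match describes these letters and is no evidence of binding.

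The balance of class II to B cell receptor counts was not constant. Cd74 per receptor count was 3.37 and 2.41 in control replicates 1 and 2, 3.72 and 5.30 in knockout replicates 1 and 2, and 31.1 in knockout replicate 3. The ratio of H2-Aa was 2.02, 1.41, 1.94, 3.07 and 19.8 in the same libraries. In both libraries numbered 3 the ratio was highest, at 22 for Cd74 in control replicate 3, on 6 receptor counts. Macrophage and dendritic cell markers were also highest in knockout replicate 3: the 22 listed genes summed to 96.4 CPM in knockout replicate 3, against 27.6 to 73.5 CPM over the controls, 72.5 CPM in knockout replicate 1 and 29.1 CPM in knockout replicate 2. Of these, 5 were at 0 counts in control replicate 2, Fcgr1, Flt3 and Xcr1 were at 0 in control replicate 3 and none was in knockout replicate 3, and their part in the class II values was not tested.

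Per kilobase of annotated exon, the mean level over the 6 libraries was highest for Igkc, at 41.0 CPM per kilobase, followed by Cd74 at 15.2, Ighm at 9.38 and Ighg2b at 5.91. Then came H2-Aa at 3.86, Igha at 2.07, Cd79a at 1.76, Cd79b at 1.42 and Ms4a1 at 0.324 CPM per kilobase. The ranges over libraries overlapped for every pair of neighbours in this order, so the order is not resolved beyond the spread. The exon length joins all annotated isoforms, which lowers the value of Ms4a1 in particular.

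None of the 9 genes passed the test between knockout and control, with adjusted p from 0.585 (Ighg2b) to 0.957 (Igha) in the edgeR quasi-likelihood F test (Benjamini-Hochberg). Over all genes 0.945% were called, 0.465% higher and 0.48% lower. At an unadjusted p under 0.05 the count was 0 of 9 against 16.7% of all genes (8.45% higher, 8.27% lower), and DESeq2's Wald test called 0 of 8, giving no adjusted p for Ighg2b. The groups overlapped in all 9 genes, against 22.9% of all tested genes in which they did not overlap, and exact two-sided permutation tests gave p from 0.6 to 1, where 0.1 is the smallest possible with 3 against 3. Since replicate 1 was the highest library of its group for all 9, leaving out 1 library of pair 1 lowers the mean of its group: without control replicate 1 the log2 fold change was positive for each, from 0.46 (Ms4a1) to 6.51 (Ighg2b), and without knockout replicate 1 negative for each, from -1.27 (H2-Aa) to -4.10 (Cd79a). Within the numbered pairs Cd79a was lower in knockout in all 3 and Igha higher in all 3. The replicate number as a block left all 9 uncalled, where 5.99% of all genes were called (3.4% higher, 2.58% lower). In that fit the lowest adjusted p values were those of Ighg2b (log2 fold change 3.07, SE 0.59, adjusted p = 0.0599) and Cd79a (log2 fold change -1.43, SE 0.42, adjusted p = 0.0756).

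**Figure D4:**
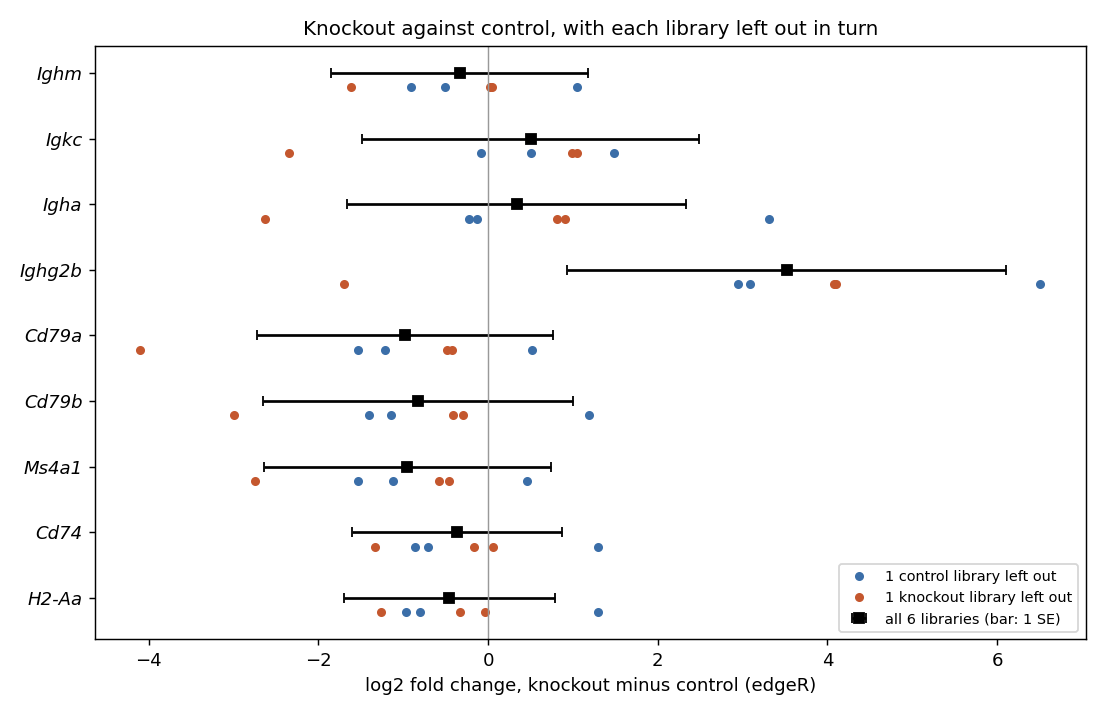
Log2 fold change of knockout over control (horizontal axis, edgeR) for the 9 genes; squares with bars are the value from all 6 libraries and 1 SE, and dots the values with 1 control or 1 knockout library left out. Leaving out control replicate 1 puts all 9 above 0, and leaving out knockout replicate 1 puts all 9 below 0.

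By replicate number 4 of the 9 genes differed, and among the controls replicate 1 also differed from replicates 2 and 3 in sex. In a model with group and replicate number, Igha (adjusted p = 1.36e-06), Cd79a (0.000868), Cd79b (0.00276) and Ighg2b (0.0102) were called (edgeR quasi-likelihood F test, Benjamini-Hochberg), against 4.64% of all genes and 4.27% with replicate 1 the higher. Replicate 1 was above the mean of replicates 2 and 3 by a log2 difference of 4.98 for Igha, 4.03 for Cd79a, 4.12 for Cd79b and 7.28 for Ighg2b. The other 5 were not called, with log2 differences from 2.40 (H2-Aa) to 3.81 (Igkc) and adjusted p from 0.0643 (Ms4a1) to 0.639 (Ighm). The replicate 1 library was the highest of its group in both groups for all 9 genes. Over all tested genes replicate 1 was highest in both groups for 2456 of 13115. Leaving out a library changed the number called to 3 without control replicate 1 or knockout replicate 1 and to 7 without control replicate 3 or knockout replicate 3, and Ighg2b was not among those 7 in either case.

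The wider B cell identity list was also highest in the libraries numbered 1. Besides Cd79a, Cd79b and Ms4a1, 26 of its genes were in the tables and 23 were tested. Summed, these 26 reached 117.8, 26.0 and 13.2 CPM across the controls and 58.3, 15.5 and 15.4 CPM across the knockouts. The leading gene, Ralgps2, alone had 9.89, 6.285 and 6.91 CPM across the controls and 5.87, 6.82 and 5.04 CPM across the knockouts. Its log2 difference by replicate number was 0.30, and it was not called. Of the 26, 13 were at 0 counts in control replicate 3 and 5 in knockout replicate 3. The sums there thus rest in large part on a gene that did not follow the others. By replicate number 18 of 23 were called, all with replicate 1 higher, against 4.64% of all genes and 4.27% with replicate 1 the higher. The count was 3 without control replicate 1, 7 without knockout replicate 1 and 10 without control replicate 2 and again 10 without knockout replicate 2. It was 23 of 26 tested without control replicate 3 and 24 of 26 without knockout replicate 3. These genes were listed as markers of 1 cell type, so the calls are not independent of each other. The pairing by number rests in part on these same counts. Pax5, the B lineage transcription factor, had 6.46, 0.822 and 0.109 CPM across the controls and 2.76, 0.0571 and 0.0536 CPM across the knockouts. Replicate 1 was the highest library of each group.

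Between knockout and control none of the 23 was called (edgeR quasi-likelihood F test, Benjamini-Hochberg), and 1, Vpreb3, was lower at an unadjusted p under 0.05, a share below the 8.27% of all genes. The median log2 fold change was -0.94, with 22 of 23 below 0, against 0.02 and 6249 of 13115 over all genes. T and NK cell genes (10 of 10, median -0.63) and pan-leukocyte genes (10 of 10, median -0.70) lay below 0 as well. Macrophage and dendritic cell genes went the other way, with 1 of 14 below 0 (median 0.68). Of 4 neutrophil and mast cell genes tested, 2 were below 0. Control replicate 1 was above knockout replicate 1 for 25 of the 26 B cell identity genes, against 6522 of 13115 over all genes. The same held for 23 of 23 T and NK cell genes and 10 of 10 pan-leukocyte genes. Genes that mark the same cells are not independent, so these tallies are a description and no test. With the replicate block 4 of the 23 B cell identity genes were called lower, against 2.58% of all genes. Of these 4, 3 are given here: the co-receptor Cr2 (log2 fold change -2.29, adjusted p = 0.0370), the inhibitory receptor Cd22 (-1.47, 0.0365) and the kinase Blk (-2.33, 0.0352). Cr2 had 228, 19 and 0 counts across the controls and 78, 1 and 0 across the knockouts. Cd22 had 290, 18 and 0 counts against 124, 9 and 0, and Blk had 128, 24 and 0 counts against 42, 3 and 0. For these 3 the control was higher in pairs 1 and 2, and both libraries of pair 3 were at 0 counts. With no block and without control replicate 1, the log2 fold change was 0.85 for Cr2, 1.69 for Cd22 and -0.29 for Blk. The 4 calls were lost on leaving out either library of pair 1 or of pair 2, with 0 called in each case, and became 9 and 8 without control replicate 3 and knockout replicate 3.

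Other leukocyte lists moved with the replicate number too. The 23 T and NK cell genes summed to 58.7, 4.60 and 1.56 CPM across the controls and 28.2, 6.74 and 3.00 CPM across the knockouts. Of the 10 tested, 8 were called by replicate number, against 4.64% of all genes. The T cell receptor constant gene Trbc2 had 4.09, 0.493 and 0.0727 CPM across the controls and 2.25, 0.685 and 0.0536 CPM across the knockouts. Of the 23, 9 were at 0 counts in control replicate 3 and 6 in knockout replicate 3. The 10 pan-leukocyte genes, 7 called, reached 116.6 and 61.0 CPM in the libraries numbered 1 and 15.0 to 24.7 CPM in the others. Ptprc, which encodes CD45, had 29.9 and 12.1 CPM in the libraries numbered 1 and at most 2.59 CPM elsewhere. Stromal and endothelial genes, 7 of 13 called, summed to 159 and 174 CPM in the libraries numbered 1 and 32.2 to 120 CPM in the others. Their part in the B cell values was not tested.

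**Figure D5:**
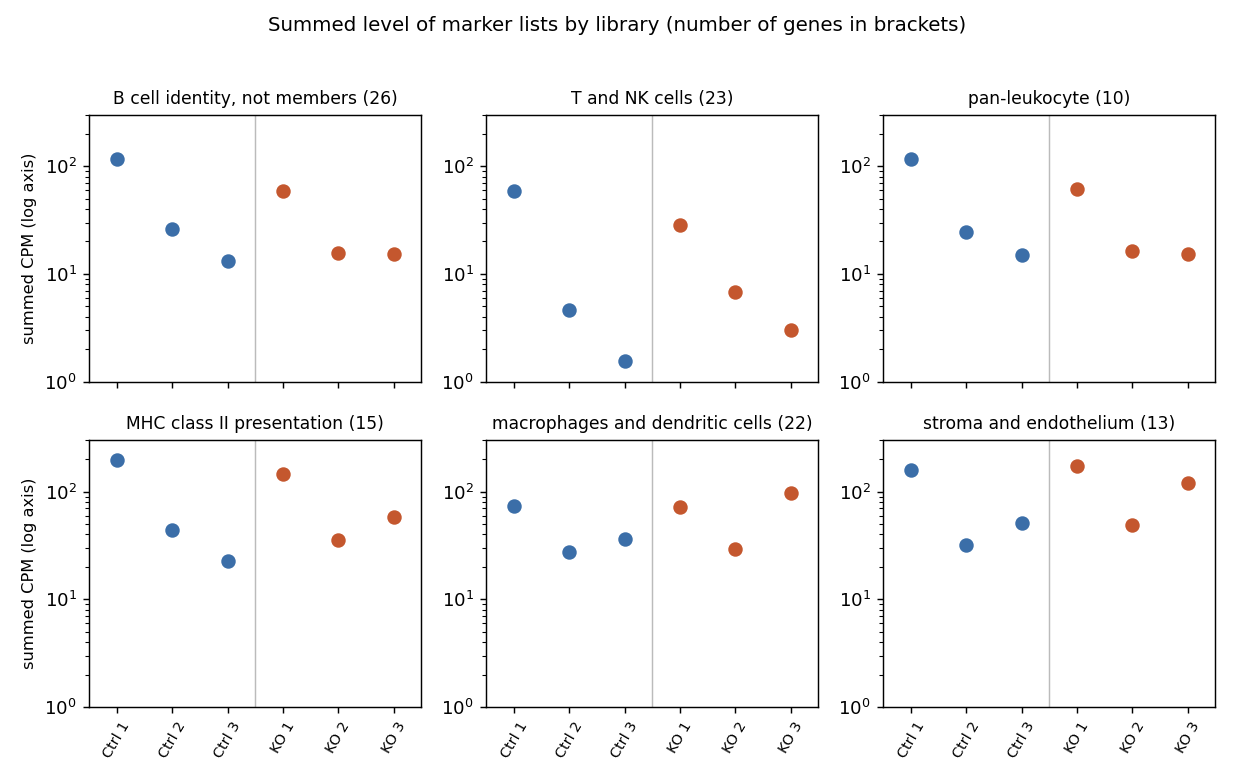
Summed normalised CPM of 6 marker lists (vertical log axis; number of genes in the panel title) in each library (Ctrl for control, KO for knockout, followed by the replicate number). B cell, T cell and pan-leukocyte sums are highest in both libraries numbered 1, while the macrophage sum is highest in knockout replicate 3, at 96.4 CPM.

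The neutrophil and mast cell markers other than Kit, which other cells also express, summed to 1.27 to 2.07 CPM in every library. Ly6g and Fcer1a were at 0 in all 6, and 0 of 3 tested were called by replicate number. Kit itself had 6.33 to 11.8 CPM. The 8 red cell genes summed to 9.07, 1.68 and 5.23 CPM across the controls and 7.83, 2.14 and 6.36 CPM across the knockouts, highest in both libraries numbered 1 and lowest in both numbered 2. Of 4 red cell genes tested 1 was called by replicate number, the beta-globin gene Hbb-bs (log2 difference 1.70, adjusted p = 0.00155, edgeR quasi-likelihood F test, Benjamini-Hochberg). Of 6 germinal centre genes tested 1 was called by replicate number, where 4.64% of all genes were.

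Among receptor signalling genes 9 of 18 tested were called by replicate number, against 4.64% of all genes, and none by group, with 1 lower at an unadjusted p under 0.05 against 8.27%. Among class II presentation genes the numbers were 4 of 13 and none (0 also at an unadjusted p under 0.05), with H2-Ob (adjusted p = 0.000701), H2-DMb2 (0.00519), H2-Eb1 (0.00831) and Ciita (0.0254) called by replicate number (edgeR quasi-likelihood F test, Benjamini-Hochberg). H2-Ob and H2-DMb2 act in B cells in particular, and Ciita is the class II co-activator.

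Of 29 signals for lymphocyte survival and homing, 17 were tested. Of these, 10 were called by replicate number, against 4.64% of all genes, and none by group. Pigr, the epithelial receptor that carries IgA and IgM into secretions, had 5.70, 5.87 and 5.05 CPM across the controls and 19.3, 9.82 and 22.3 CPM across the knockouts. For Pigr all 3 knockout libraries lay above all 3 controls, as they did for 12% of all genes tested. Its log2 fold change of 1.63 (SE 0.29) missed the threshold (adjusted p = 0.0567, edgeR quasi-likelihood F test, Benjamini-Hochberg), and with the replicate block it was called (log2 fold change 1.56, adjusted p = 0.0123). Igha, the class it carries, had a knockout over control ratio of 1.24 to 1.48 within the pairs. The complement genes C1qa, C1qb and C1qc and the macrophage gene Adgre1 were also called higher with the block. They were 4 of 14 macrophage and dendritic cell genes tested, against 3.4% of all genes. Without the block none of the 14 was called, and 2 were higher at an unadjusted p under 0.05, against 8.45% of all genes.

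The genes most like the members were sought among 10292 candidates by the root mean square difference of centred log2 CPM over the 6 libraries. For the mean of Ighm, Cd79a, Cd79b and Ms4a1 they were Ltb (0.32), H2-DMb2 (0.37), Btla (0.45), Bank1 (0.46) and H2-Ob (0.47), against a median of 2.17 over candidates. For the mean of Igha, Ighg2b and Igkc the nearest 5 included Ighg2c (0.30), Jchain (0.85), Spib (1.09) and Ighg1 (1.13), with a median of 2.99. For Cd74 and H2-Aa they were H2-Ab1 (0.24), Cd53 (0.25), Rassf2 (0.27), Sp100 (0.28) and Slfn2 (0.28), with a median of 1.41. The 6 libraries share their depth and replicate order, so these distances are a description.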

How the data were processed

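RNA was sequenced from 3 control and 3 knockout acinar preparations, poly-A enriched and primed with random hexamers, per the labels' protocols. The submitters' processing notes name STAR 2.7.10a and the mouse build GRCm39 (mm39). The authors deposited whole-number counts per gene, of which the unstranded column was used. Whether 1 count is a read or a pair is not given in the sources used here. Rows outside genes were left out, and reads mapped to several places were 21.6% to 28.4% of all reads.

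Symbols, exon lengths and chromosomes came from GENCODE M21 (GRCm38), in which 52133 identifiers (94.1%) matched, and promoters from RefSeq (GRCm38.p6). Among the 9 genes, Cd79a and H2-Aa had a promoter entry. Because the builds differ, no coordinates were joined to the counts.

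Genes passing filterByExpr were tested with edgeR 4.0.16 in R 4.3.3 (TMM, robust quasi-likelihood, Benjamini-Hochberg, called under 0.05), and with DESeq2 1.42.0 as an alternative. Log2 CPM used a prior count of 2, and the replicate number was tested in a model with group. The SE is the fold change over the square root of F. Fits were tested on simulated data. Shares have exact 95% Clopper-Pearson intervals and are given above 20 counts, and folds against 3 or fewer counts are bounds. Libraries were compared pairwise, and none agreed within sampling noise (chi-square per degree of freedom at least 26.3).

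Same-numbered libraries deviated together (correlation of log2 CPM deviations 0.63, 0.455 and 0.285, against -0.496 to 0.21 for other pairs), and the numbers were taken to pair the libraries. Deviations were taken from each group's mean, so positive values for the same numbers push the values of other pairs down. The pairing thus rests on the labels' numbers and on these same counts, and it was not checked independently. The 9 genes and the 17 lists were chosen with earlier results of these data known. Besides the 9, the text names Trip12, listed genes called in a group comparison, the leading genes of each list, the 3 leading variable segments of each library and the 5 genes most like each subset. Other named genes, such as Pax5, Jchain, Mzb1, Tnfrsf17, H2-Eb1 and Ciita, were chosen after their values were seen. Acinar, duct and adipocyte genes that the rule would also name are not described, and a few other genes are not reported here.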

Additional observations from a re-analysis of the deposited data

How the results depend on the processing

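The 9 genes stayed uncalled between knockout and control in all 128 alternative values, with adjusted p of at least 0.0599 in edgeR or DESeq2. The sign of Ighm turned with the replicate block (log2 fold change 0.17), and those of Igkc (-0.49) and Igha (-1.10) with a sex covariate. With 1 library left out, log2 fold changes ran from -1.62 to 1.05 for Ighm, -2.35 to 1.48 for Igkc, -2.63 to 3.31 for Igha, -1.70 to 6.51 for Ighg2b, -4.10 to 0.52 for Cd79a, -3.00 to 1.20 for Cd79b, -2.75 to 0.46 for Ms4a1, -1.33 to 1.30 for Cd74, -1.27 to 1.30 for H2-Aa, -7.22 to 0.85 for Cr2, -4.67 to 1.69 for Cd22 and -0.041 to 1.39 for the adipocyte gene Fabp4.

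Over all genes 124 were called by group (61 higher, 63 lower). The count was 1519 with library totals (1442 higher, 77 lower), where all tested genes had a median log2 fold change of 0.43 against 0.02. It was 850 with no filter, 210 among genes reaching 10 counts in all 6 libraries, 594 with DESeq2, 785 with the replicate block, 21 with a sex covariate, and 20 (without control replicate 2) to 461 (without control replicate 1) with a library left out. By replicate number 608 were called, 1548 with no filter, and 87 (without control replicate 1) to 1666 (without knockout replicate 3) with a library left out. The causes were not tested.

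By replicate number none of the 9 changed direction in any of 111 alternatives, and Igha and Cd79a were called in all of theirs. Cd79b was not called in DESeq2's likelihood ratio test (adjusted p = 0.0663), without control replicate 1 (0.149) or without knockout replicate 1 (0.0609), and Ighg2b was not called without control replicate 3 (0.240) or knockout replicate 3 (0.259). With no robust estimation Igkc, Ms4a1, Cd74 and H2-Aa were also called. Mean immunoglobulin levels were 74.2 CPM of gene counts in control and 142.2 CPM in knockout without each library's leading variable segment. In knockout replicate 1 this took out Igkv8-27 but not Ighv1-61 or any constant-region counts, and 387 CPM of gene counts remained. The blocked fits with a library left out were chosen after seeing the data. The low counts of control replicate 3 limit every comparison in pair 3.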
